A study of Neotoma lepida with 16 samples.

Results

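The enzymes of gluconeogenesis and glycogen metabolism were followed in the liver of 16 desert woodrats (Neotoma lepida) through every array probe that carries the name of 1 of 9 genes: G6pc, Fbp1, Pck1, Pcx, Gys2, Ppp1r3c, Ppp1r3b, Pygl and Pklr. The array held 14 such probes for 8 of the 9 genes, among 41012 probes in all. No probe was named Pcx, and pyruvate carboxylase stood on the array under the name Pc. Of the 14 probes, 12 probes of 7 genes passed the filter on dim signals, as did 30186 probes of the whole array, and each of the 12 is reported separately. The only Pygl probe and 1 of the 2 Ppp1r3b probes were not well above background on any array.

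Gluconeogenesis makes glucose from lactate, amino acids and glycerol, and the liver uses it to hold blood glucose between meals. Pyruvate carboxylase, Pck1, Fbp1 and G6pc catalyse the steps that bypass the irreversible reactions of glycolysis, and Pklr encodes the liver pyruvate kinase that works against them. Glycogen is the liver's glucose store: Gys2 builds it, Pygl breaks it down, and Ppp1r3c and Ppp1r3b are subunits that carry protein phosphatase 1 to the glycogen particle, where it favours synthesis.

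The animals were caught in the wild in 2 places, the Mojave desert and the Great Basin, lived on rabbit chow in captivity for 3 months, and then ate chow with rising amounts of creosote bush or of juniper for 5 days. The groups were Mojave animals on creosote (4 males), Mojave animals on juniper (2 males and 2 females), Great Basin animals on creosote (2 males and 2 females) and Great Basin animals on juniper (2 males and 2 females). The trial asked how the liver answers plant diets that differ in their secondary compounds, and whether the populations answer alike. No chow-only group was analysed here, and a level above juniper on creosote is equally a level below creosote on juniper.

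Each array compared 1 animal, in the red dye, with an equimolar pool of all 16 livers, in the green dye, and values are log2 ratios of animal over pool. A value of 0 is the pool's level, and values of different probes are not on a common scale. The arrays lay 4 to a slide, with 1 animal of each group per slide, and every group had the same position on all 4 slides, so group and position cannot be told apart. On slide 1, 45.6 to 51.7% of the probes were well above background, and on the other slides 59.6 to 75.9%. The probes are rat sequences, so a woodrat transcript that differs from them gives a weaker signal. In whole liver fewer cells of a type and less RNA per cell cannot be told apart.

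On creosote, in both populations, the transcript of the glucose-releasing enzyme G6pc and that of the glycogen-targeting subunit Ppp1r3c were higher than on juniper, and that of glycogen synthase Gys2 was lower, each by at least 1 of its 2 probes. The other Gys2 probe gave a positive difference in Great Basin, 1.06, that did not pass. Fbp1 was higher on creosote in Mojave animals by both of its probes, and a second G6pc probe was higher there too. Pck1, the cytosolic phosphoenolpyruvate carboxykinase, passed the test in neither population, and neither did Ppp1r3b nor Pklr. In Mojave animals 6 of the 12 tested probes passed, 5 higher and 1 lower on creosote, where 10.0% of all probes passed, 3.80% higher and 6.23% lower. In Great Basin animals 3 of the 12 passed, 2 higher and 1 lower, where 3.91% of all probes passed, 2.02% higher and 1.89% lower. The test was limma's moderated statistic with a sex term, Benjamini-Hochberg adjustment over all tested probes and a threshold of 0.05. The median log2 difference of the 12 probes was 0.17 in Mojave and 0.22 in Great Basin, beside -0.01 and -0.00 for all tested probes. Without the dim slide 1 the test called 4 of the 12 in Mojave and 3 in Great Basin, and in male animals only it called 4 and 1. Males alone left 2 animals on each diet in Great Basin, and 174 of all probes were called there, against 1180 with both sexes.

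**Figure D1:**
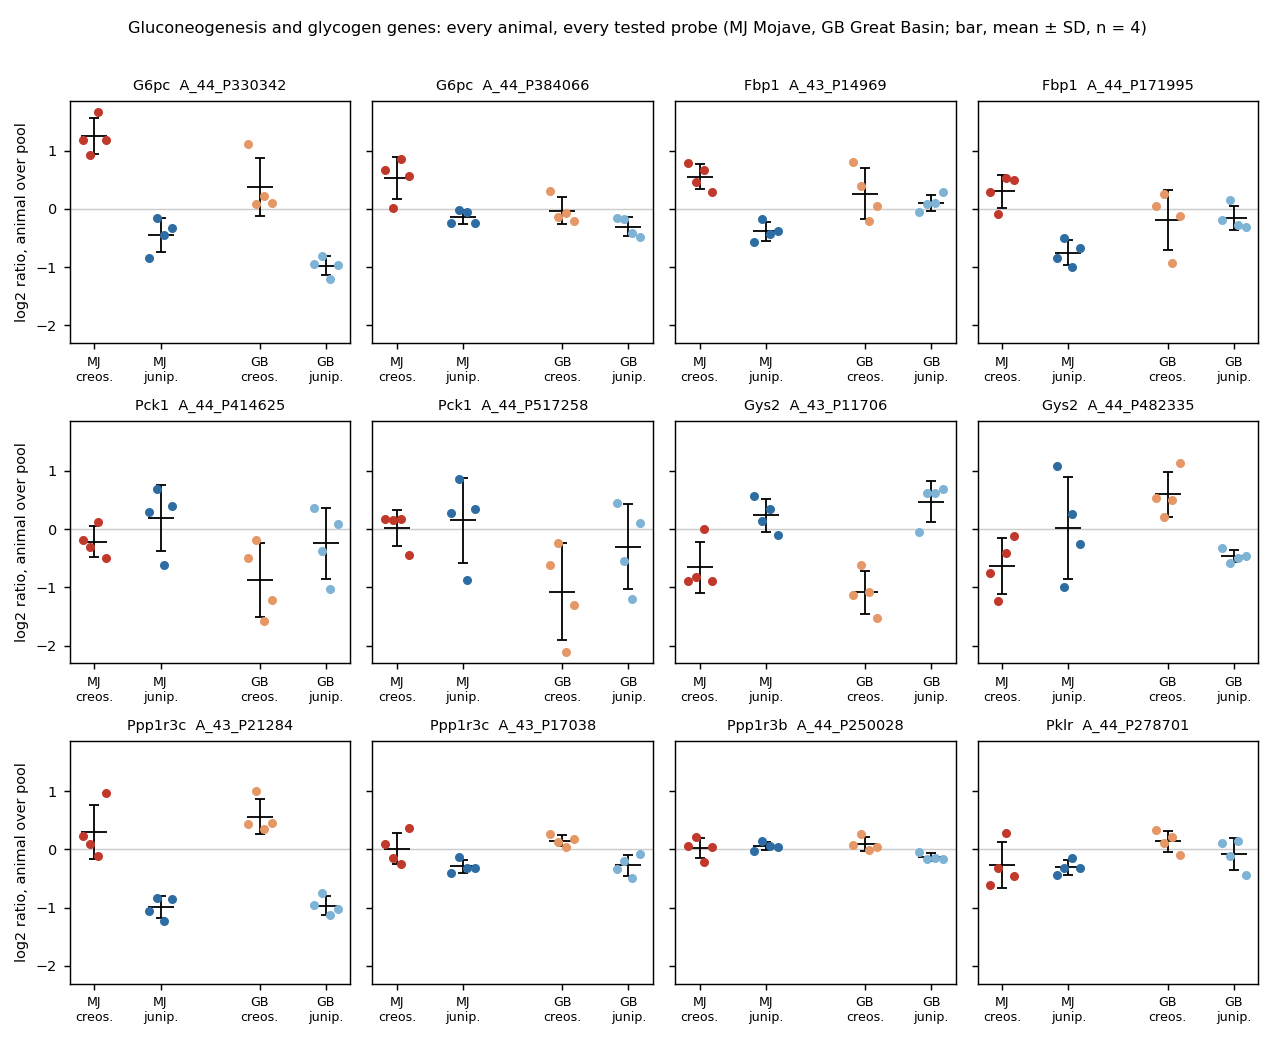
Log2 ratio of animal over pool for each of the 12 tested probes (vertical axis) in the 4 groups (horizontal axis); points are animals in the order of their numbers, bars are the mean ± SD of 4 animals. G6pc A_44_P330342 and Ppp1r3c A_43_P21284 lie higher on creosote in every animal of both populations, and Gys2 A_43_P11706 lies lower on creosote in every Great Basin animal.

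Many but not all hepatocyte marker probes differed with the diet as well. Of 16 probes for 10 marker genes, Tat among them, 8 were higher and 0 lower on creosote in Mojave, and 6 higher and 0 lower in Great Basin, with median log2 differences of 0.58 and 0.81. Of all probes, 3.80% were called higher in Mojave and 2.02% in Great Basin. The mean over the 16 probes lay between 0.21 and 0.53 in Mojave animals on creosote, against -0.15 and -0.06 on juniper. In Great Basin it lay between 0.39 and 0.66 on creosote, against -0.14 and -0.07 on juniper. The called markers went the way of G6pc and Ppp1r3c A_43_P21284 and against Gys2 A_43_P11706. Hnf4a did not, as its probes gave -0.27 and -0.31 in Mojave and -0.08 and -0.00 in Great Basin. Apoh gave -0.16 in Mojave, and Alb A_44_P468107 gave -0.11 in Great Basin. Serpina1 gave 0.00 in Mojave and 0.03 in Great Basin, and none of these differences passed. Of 11 probes for pancreas and intestine markers, 2 were higher on creosote in Mojave and 1 in Great Basin. A probe of the pancreatic amylase gene Amy2 was among them in both. The median log2 difference of the 11 probes was 0.16 in Mojave and 0.07 in Great Basin. This probe, A_44_P161473, was higher on creosote by 2.23 ± 0.27 in Mojave (limma, adjusted p = 0.00026) and by 1.89 ± 0.25 in Great Basin (adjusted p = 0.000487). Another Amy2 probe, A_44_P179767, passed in neither population and gave 0.09 ± 0.52 in Great Basin (limma, adjusted p = 0.956). The mean over the 11 probes lay between 0.09 and 0.72 in Mojave animals on creosote, against -0.29 and -0.05 on juniper. In Great Basin it lay between 0.05 and 0.17 on creosote, against -0.14 and -0.06 on juniper. On both lists these means kept the diets apart in both populations. The mean over the 11 probes holds Amy2 A_44_P161473, at 1.89 in Great Basin, where the median of the 11 was 0.07 and no other probe passed. The part of either list in the differences of the members was not tested.

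G6pc encodes the catalytic subunit of glucose-6-phosphatase, the enzyme of the last step of both gluconeogenesis and glycogen breakdown. Its probe A_44_P330342 read 1.19, 0.93, 1.67 and 1.19 in Mojave animals 1 to 4 on creosote, against -0.85, -0.16, -0.45 and -0.33 in Mojave animals 1 to 4 on juniper. For Great Basin animals 1 to 4 on creosote the readings were 1.12, 0.08, 0.23 and 0.10, against -0.94, -0.80, -1.20 and -0.97 on juniper. The diets did not overlap in either population, and 1 Great Basin animal on creosote stood far above the other 3. The log2 difference was 1.67 ± 0.23 (SE) in Mojave, a 3.19-fold higher level on creosote (limma, adjusted p = 0.000592), and 1.36 ± 0.22 in Great Basin, a 2.56-fold higher level (adjusted p = 0.00206). Within single slides the creosote animal exceeded the juniper animal by 1.09 to 2.12 in Mojave and by 0.88 to 2.32 in Great Basin, on 4 of 4 slides each. In male animals alone the Great Basin difference was 1.68 with an adjusted p of 0.0737.

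The other G6pc probe, A_44_P384066, was dim: its red signal was 1.57 to 4.49 times the local background, and 15 of 16 arrays had it well above background. It read 0.67, 0.02, 0.86 and 0.57 in Mojave animals on creosote, against -0.24, -0.02, -0.04 and -0.25 on juniper, and the groups did not overlap, if only just. The difference was 0.67 ± 0.17, or 1.60-fold (limma, adjusted p = 0.0194). Great Basin animals on creosote lay between -0.21 and 0.30 and those on juniper between -0.48 and -0.16, a difference of 0.28 ± 0.16 that did not pass (adjusted p = 0.404). The Mojave call was lost without Mojave juniper animal 1 (adjusted p = 0.0776), without slide 1 (0.0521), in males alone (0.124) and in the red dye alone (0.18).

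Fbp1, fructose bisphosphatase, catalyses the step before the glucose phosphates. Probe A_43_P14969 read 0.78, 0.46, 0.66 and 0.30 in Mojave animals on creosote, against -0.57, -0.17, -0.43 and -0.37 on juniper. Probe A_44_P171995 read 0.29, -0.09, 0.53 and 0.49 on creosote, against -0.84, -0.49, -1.00 and -0.67 on juniper. On both probes every Mojave creosote animal was above every Mojave juniper animal. The differences were 0.79 ± 0.16 (1.72-fold, adjusted p = 0.00563) and 0.96 ± 0.22 (1.95-fold, adjusted p = 0.0124), by limma. They were positive within all 4 slides, at 0.63 to 1.35 and 0.40 to 1.53.

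In Great Basin animals the Fbp1 probes gave differences of 0.15 ± 0.15 (A_43_P14969, adjusted p = 0.663) and -0.02 ± 0.21 (A_44_P171995, adjusted p = 0.968). There the creosote animals were spread widely, from -0.21 to 0.80 and from -0.92 to 0.25, around the juniper animals, at -0.06 to 0.29 and -0.32 to 0.15. The Mojave calls of Fbp1 did not hold under every scaling of the arrays. Over the alternatives that left out no single animal, A_43_P14969 kept its call in 10 of 12 and A_44_P171995 in 9 of 11. With the arrays centred on their medians in place of loess, the differences were 0.33 (adjusted p = 0.224) and 0.52 (adjusted p = 0.15). A_44_P171995 also lost its call without Mojave juniper animal 1 (adjusted p = 0.0595) and without slide 1 (0.0917), and A_43_P14969 in the red dye alone (0.0791).

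Pck1 turns oxaloacetate into phosphoenolpyruvate and is a classic target of glucagon and fasting. Probe A_44_P414625, printed on 10 spots of each array, read -0.18, -0.30, 0.13 and -0.50 in Mojave animals on creosote, against 0.29, 0.70, -0.61 and 0.40 on juniper. It read, for Great Basin animals, -0.50, -0.19, -1.58 and -1.22 on creosote, against 0.36, -0.38, -1.03 and 0.09 on juniper. In each population the diets overlapped. The differences were -0.61 ± 0.35 in Mojave (limma, adjusted p = 0.336) and -0.63 ± 0.32 in Great Basin (adjusted p = 0.34). The second probe, A_44_P517258, gave -0.41 ± 0.43 (adjusted p = 0.657) and -0.77 ± 0.40 (adjusted p = 0.349). Within slides the creosote animal was the higher of the pair on 1 of 4 slides in Mojave and on 2 of 4 in Great Basin, for both probes.

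Pck1 varied widely among animals of one group. The within-group SD was 0.54 for A_44_P414625 and 0.68 for A_44_P517258, above that of 99.1% and 99.6% of the kept probes, whose median was 0.13. Gys2 A_44_P482335 varied as widely, with an SD of 0.54, also above 99.1% of the kept probes. All tested probes but Ppp1r3b A_44_P250028, at 0.12, were above that median. The lowest Pck1 value was -2.12, in Great Basin animal 3 on creosote, and the highest 0.85, in Mojave animal 2 on juniper, both on A_44_P517258. In each animal the Pck1 probes differed by no more than 0.53. With median centring A_44_P414625 passed in Mojave at -1.11 (adjusted p = 0.0431). Pyruvate carboxylase, by its 1 probe A_42_P533312 (named Pc), gave -0.15 ± 0.12 in Mojave and -0.18 ± 0.11 in Great Basin and did not pass (adjusted p = 0.539 and 0.473).

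Gys2 encodes the liver isoform of glycogen synthase, and its 2 probes gave different diet differences. Probe A_43_P11706 read -0.89, -0.83, 0.01 and -0.89 in Mojave animals on creosote, against 0.56, 0.15, 0.35 and -0.10 on juniper. Great Basin animals read -1.13, -0.61, -1.08 and -1.52 on creosote, against -0.05, 0.62, 0.63 and 0.69 on juniper. The Great Basin groups were apart, and in Mojave 1 creosote animal reached into the juniper range. The difference was -1.06 ± 0.23 in Mojave, a 2.09-fold lower level on creosote (limma, adjusted p = 0.00737), and -1.56 ± 0.21 in Great Basin, 2.94-fold lower (adjusted p = 0.000536). It was negative within every slide, at -1.46 to -0.34 in Mojave and -1.77 to -1.23 in Great Basin. In males alone the values were -1.01 (adjusted p = 0.0602) and -1.52 (adjusted p = 0.0648).

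Probe A_44_P482335 of Gys2, with red signals of 2.49 to 21.7 times the local background, read -0.76, -1.23, -0.41 and -0.12 in Mojave animals on creosote, against 1.08, -1.00, 0.26 and -0.26 on juniper. Great Basin animals read 0.53, 0.22, 0.50 and 1.15 on creosote, against -0.33, -0.58, -0.49 and -0.46 on juniper. All 4 Great Basin creosote animals were above the juniper animals, the opposite order to the first probe, while the Mojave diets overlapped. Neither difference passed: -0.58 ± 0.37 in Mojave (limma, adjusted p = 0.4) and 1.06 ± 0.34 in Great Basin (adjusted p = 0.0999). With slide as a block the Great Basin value had an adjusted p of 0.0487, and it also passed without Mojave juniper animal 1 (0.0236) or 2 (0.0489).

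Ppp1r3c, also called protein targeting to glycogen, was measured by probe A_43_P21284 at 0.24, 0.10, -0.11 and 0.97 in Mojave animals on creosote, against -1.05, -0.84, -1.24 and -0.85 on juniper. Among Great Basin animals the values were 0.44, 1.00, 0.36 and 0.46 on creosote, against -0.96, -0.75, -1.13 and -1.03 on juniper. The juniper animals of both populations lay close together, and no creosote animal reached them. The difference was 1.26 ± 0.21 in Mojave, 2.40-fold higher on creosote (limma, adjusted p = 0.00178), and 1.53 ± 0.20 in Great Basin, 2.89-fold higher (adjusted p = 0.000426). Within slides it was 0.94 to 1.82 and 1.39 to 1.75, and it passed under every alternative run, males alone included. The red signal of this probe was 4.01 to 28.2 times the local background.

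The second Ppp1r3c probe, A_43_P17038, whose red signal was 2.96 to 7.47 times the local background, gave 0.28 ± 0.13 in Mojave and 0.42 ± 0.12 in Great Basin. Neither passed (limma, adjusted p = 0.21 and 0.0664), although in Great Basin all creosote animals, at 0.03 to 0.26, were above all juniper animals, at -0.48 to -0.08. The Great Basin difference passed without Mojave creosote animal 3 (adjusted p = 0.0493) or 4 (0.0295). Ppp1r3b, the liver's other main glycogen-targeting subunit, was well above background on 12 of 16 arrays by probe A_44_P250028. It gave -0.05 ± 0.09 in Mojave (adjusted p = 0.845) and 0.22 ± 0.09 in Great Basin (adjusted p = 0.185). All its values lay between -0.21 and 0.26, the narrowest span of the tested probes.

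Pklr, measured by A_44_P278701, lay between -0.60 and 0.29 in Mojave animals on creosote, against -0.45 and -0.15 on juniper, and between -0.10 and 0.33 in Great Basin animals on creosote, against -0.45 and 0.14 on juniper. The differences were 0.06 ± 0.18 and 0.21 ± 0.17 and did not pass (limma, adjusted p = 0.901 and 0.589). Its red signal was 2.47 to 5.75 times the local background. The Pygl probe A_44_P1050054 had a red signal of 0.98 to 1.34 times the local background and the Ppp1r3b probe A_43_P13338 one of 1.03 to 1.40 times, so no level of either is given for any group.

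**Figure D2:**
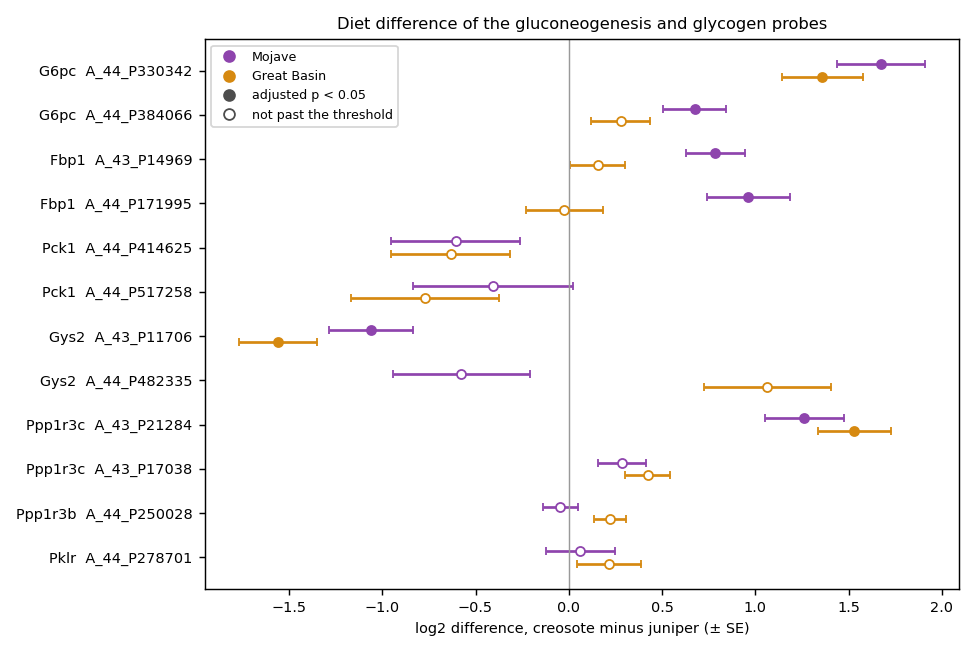
Log2 difference, creosote minus juniper, with its standard error (horizontal axis) for the 12 tested probes (vertical axis) in Mojave and Great Basin animals; filled points passed at an adjusted p under 0.05. The widest gap between probes of one gene is that of Gys2 in Great Basin, at -1.56 and 1.06.

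Counted by animals rather than by the test, 5 of the 12 probes kept the 2 diets apart in Mojave, where 16.7% of all probes with a value on every array of the groups did so. In Great Basin 6 of the 12 did so, beside 10.2% of all such probes. In both populations these were G6pc A_44_P330342 and Ppp1r3c A_43_P21284. In Mojave they also included the other G6pc probe and both Fbp1 probes, and in Great Basin both Gys2 probes, the second Ppp1r3c probe and Ppp1r3b.

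Because the loess scaling, background and dye of an array act on all its probes, the 2 probes of a gene were compared within each animal. For G6pc, A_44_P330342 exceeded A_44_P384066 by 0.22 to 0.92 in the creosote animals of both populations, against -0.78 to -0.08 in the juniper animals. The diet difference between these probes was 1.05 (exact permutation test within populations over 4900 arrangements, adjusted p = 0.00102 over 5 pairs). That of the Ppp1r3c probes was 1.05 as well (adjusted p = 0.00102, exact permutation test), and the smallest p the arrangements allow is 0.000408. In G6pc the probe with the smaller diet difference was far dimmer, with a median red signal of 2.23 times the local background against 163. In Ppp1r3c the medians over all 16 arrays were closer, at 5.16 and 6.50. In juniper animals the probe with the smaller difference was at 2.99 to 7.47, against 4.01 to 6.13 for the other. In creosote animals it was at 2.96 to 6.81, against 6.87 to 28.2. The part of the signal level in the gap of either gene was not tested. The deposited ratios carry no added offset, where 50 was added to every signal here, and the genes' gaps moved in opposite directions with them. With the deposited ratios the G6pc probes differed by 0.33 (adjusted p = 0.168, exact permutation test) and A_44_P384066 itself gave 1.54 in Mojave and 0.91 in Great Basin. The Ppp1r3c probes differed by 1.32 with the deposited ratios (adjusted p = 0.00204, exact permutation test). There A_43_P21284 gave 1.69 in Mojave and 1.93 in Great Basin, and A_43_P17038 gave 0.37 and 0.63.

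The Gys2 probes differed by -1.43 between diets (exact permutation test, adjusted p = 0.017). The gap was -0.24 in Mojave (exact p = 0.657) and -2.62 in Great Basin (exact p = 0.0286, the smallest that 4 against 4 animals allow). In Great Basin animals on creosote A_43_P11706 minus A_44_P482335 ran from -2.67 to -0.83, against 0.28 to 1.20 on juniper, so the sign of a diet effect on Gys2 there depends on the probe. The Fbp1 probes differed by 0.03 (adjusted p = 0.834) and the Pck1 probes by -0.07 (adjusted p = 0.688) in the exact permutation test. The probe sequences were not used here, and which part of the woodrat transcript each probe meets was not tested.

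**Figure D3:**
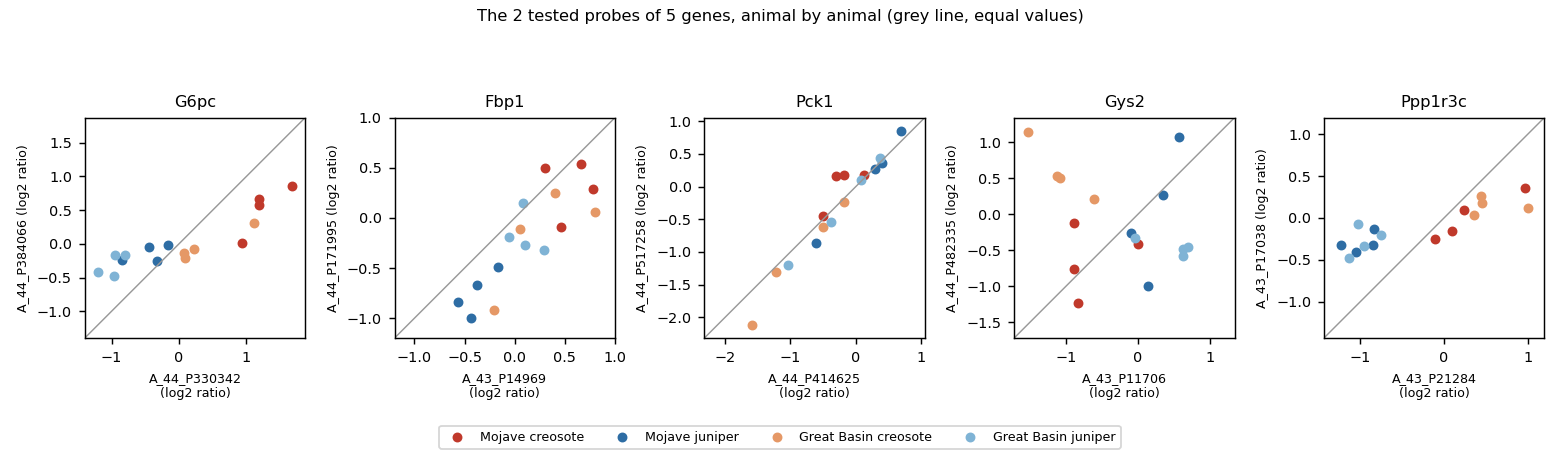
Log2 ratio of the 2 tested probes of G6pc, Fbp1, Pck1, Gys2 and Ppp1r3c against each other, 1 point per animal, coloured by group; the grey line marks equal values. Pck1 animals follow the line to within 0.53, G6pc and Ppp1r3c points run flatter than it, and Gys2 points of Great Basin animals fall on opposite sides of it by diet.

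The green dye carried the same pool on every array, on the same spots as the RNA of the single animals, and its diet difference is given here. For G6pc A_44_P330342 the pool signal was higher on the creosote arrays by 0.65 in Mojave and 0.42 in Great Basin, while the median absolute difference over all kept probes was 0.06 and 0.08. For Ppp1r3c A_43_P21284 it was higher by 0.18 and 0.25, and for Gys2 A_43_P11706 it was -0.07 and -0.10. The pool's shift had the sign of the animals' difference in all 3 of these probes. Fbp1 A_43_P14969 in Mojave had opposite signs, -0.10 in the pool and 0.69 in red alone. So did Pck1 A_44_P517258, at 0.09 and -0.36 in Mojave and 0.14 and -0.63 in Great Basin. The ratio subtracts the green signal, and whether this removes the shift was not tested. The red dye alone gave 2.43 and 1.87 for G6pc, 1.55 and 1.81 for Ppp1r3c, and -1.13 and -1.78 for Gys2. In Mojave creosote animals 1 to 4 the green log2 signal of G6pc A_44_P330342 was 12.35, 12.19, 12.79 and 12.49. Their red signals, 330, 247, 663 and 468 times the local background, had the same order. In Mojave juniper animals 1 to 4 the orders differed, with 11.75, 11.77, 11.94 and 11.74 in green and 87.9, 152, 131 and 148 in red. The parts of the position on the slide and of the red signal on the same spots in the pool's shift were not tested.

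**Figure D4:**
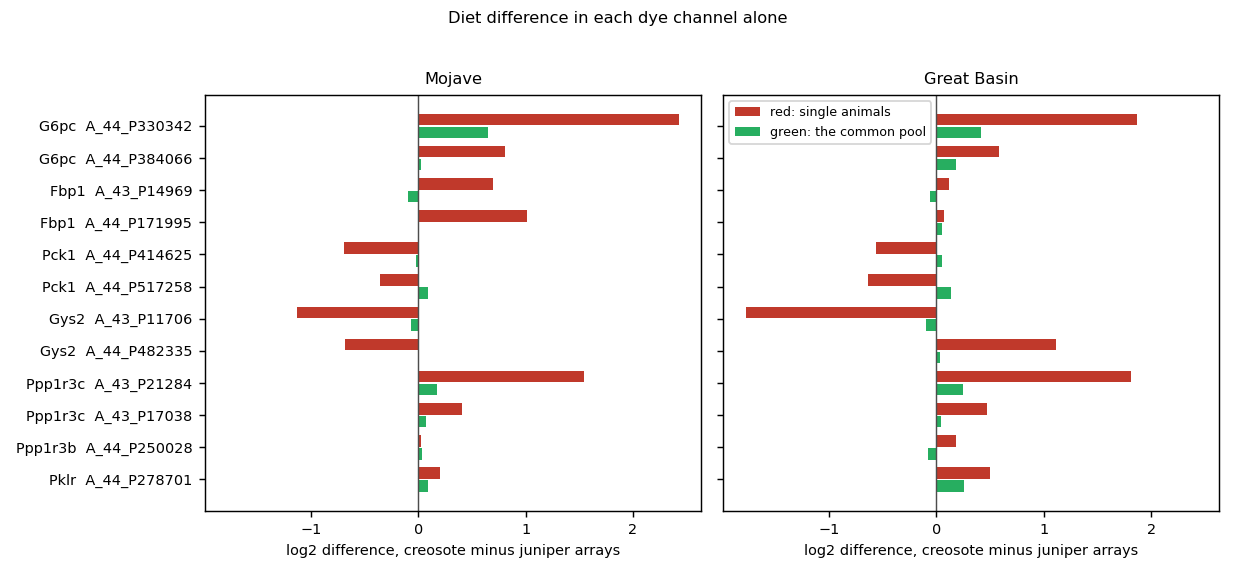
Log2 difference between creosote and juniper arrays (horizontal axis) in the red dye, which carries single animals, and in the green dye, which carries the same pool on all arrays, for the 12 tested probes (vertical axis) in each population. The pool differs most for G6pc A_44_P330342, by 0.65 in Mojave and 0.42 in Great Basin.

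Between the populations none of the 12 probes passed. On creosote, 0 of 12 passed by limma, where 0.0928% of all probes did (0.0331% higher and 0.0596% lower in Mojave). G6pc A_44_P330342 was 0.85 ± 0.23 above Great Basin in Mojave animals (adjusted p = 0.128) and A_44_P384066 0.56 ± 0.17 (adjusted p = 0.15), with overlapping groups. Gys2 A_44_P482335 gave -1.15 ± 0.37 (adjusted p = 0.173), and no Mojave creosote animal reached the Great Basin creosote animals, which made it 1 of 12 probes apart, beside 6.02% of all. With median centring this probe passed at -1.44 (adjusted p = 0.0314).

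On juniper, 0 of 12 passed by limma, as did 0% of all probes. Both Fbp1 probes were lower in every Mojave juniper animal than in every Great Basin juniper animal, by -0.49 ± 0.15 (adjusted p = 0.341) and -0.59 ± 0.21 (adjusted p = 0.422). With Ppp1r3b, 0.18 ± 0.09 (adjusted p = 0.609), 3 of the 12 probes kept the populations apart on juniper, beside 6.84% of all probes.

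Whether the diet effect differed between populations was asked by the interaction, the Mojave effect minus the Great Basin effect. It passed for 0 of 12 probes and for 0% of all probes by limma. The 3 of the 12 with the lowest p were Fbp1 A_43_P14969 at 0.63 ± 0.22 (adjusted p = 0.211), Fbp1 A_44_P171995 at 0.99 ± 0.30 (adjusted p = 0.167) and Gys2 A_44_P482335 at -1.64 ± 0.50 (adjusted p = 0.164). The Fbp1 calls in Mojave alone are therefore not shown to differ from Great Basin. With median centring the Gys2 value was -2.01 and passed (adjusted p = 0.034). G6pc A_44_P330342 gave 0.32 ± 0.32, Ppp1r3c A_43_P21284 -0.27 ± 0.29 and Gys2 A_43_P11706 0.50 ± 0.31, all with an adjusted p of 0.522 or more.

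The probes most like the called ones over the 16 arrays were found by Pearson correlation among 12658 probes of genes with a symbol. All points share the 4 group means and the array scaling, and the values are a description. G6pc A_44_P330342 was closest to Cutc (r = 0.93), Dnajc9 (0.92) and S100a1 (0.92), and A_44_P384066 to Zfp36l1 (0.90), Mtf2 (0.87) and Crem (0.86). Fbp1 A_43_P14969 was closest to Lkap (0.88), Msl2l1 (0.88) and Gulo (0.86), the gene of the last step of vitamin C synthesis, and A_44_P171995 to Mgst3 (0.93), Nr3c1 (0.88) and Olr60 (0.87). Gys2 A_43_P11706 was closest to Scrn2, Cgref1 and Anxa7 (0.90 each), and Ppp1r3c A_43_P21284 to Mppe1, Olr326 and Klk8 (0.93 each).

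A wider list of the same pathways, with the enzymes around the members and their control by insulin, glucagon, glucocorticoid and fasting, had 83 kept probes of 64 genes. In Mojave 8 of the 83 were higher and 7 lower on creosote, where 3.80% of all probes were higher and 6.23% lower. In Great Basin 7 were higher and 1 lower, where 2.02% of all probes were higher and 1.89% lower. The same shares stand beside the parts of the list given below. No probe of the list passed between populations or in the interaction. The 5 probes for glucose release and uptake held no call, among them the glucose-6-phosphate transporter Slc37a4 (0.03 ± 0.10 in Mojave, -0.01 ± 0.09 in Great Basin) that works with G6pc.

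Of the 25 probes of glycolysis and gluconeogenesis steps, 3 were higher and 1 lower on creosote in each population. Sds, serine dehydratase, lay between 0.56 and 1.35 in Mojave animals on creosote, against -0.79 and 0.04 on juniper, a difference of 1.41 ± 0.18 (limma, adjusted p = 0.000352). In Great Basin it lay between 0.36 and 0.52 on creosote, against -0.92 and -0.38 on juniper, a difference of 1.03 ± 0.17 (adjusted p = 0.00255). The diets were apart in both populations. Tat, tyrosine aminotransferase, was higher on creosote by 0.96 ± 0.20 in Mojave (adjusted p = 0.0075) and by 1.41 ± 0.19 in Great Basin (adjusted p = 0.000536). Khk, the fructose-phosphorylating ketohexokinase, was higher by 0.87 ± 0.09 in Mojave (adjusted p = 0.000136) and by 0.34 ± 0.08 in Great Basin (adjusted p = 0.0357). Ldha, a lactate dehydrogenase subunit, was lower on creosote by 0.66 ± 0.20 in Mojave (adjusted p = 0.0455) and by 1.01 ± 0.18 in Great Basin (adjusted p = 0.00478). The aminotransferase genes Gpt1, Gpt2, Got1 and Got2, on 5 probes of the same list, passed in neither population. Got1 gave 0.71 ± 0.46 in Mojave and 0.91 ± 0.42 in Great Basin (adjusted p = 0.404 and 0.289). The Gpt2 probes gave -0.39 ± 0.21 on A_43_P19536 and -0.30 ± 0.23 on A_44_P430890 in Mojave (adjusted p = 0.284 and 0.505), and 0.18 ± 0.19 and 0.24 ± 0.21 in Great Basin (adjusted p = 0.711 and 0.625). The Khk call in Great Basin was lost without any 1 of 6 animals (adjusted p up to 0.116) and that of Ldha in Mojave without any 1 of 12 (up to 0.152).

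Of the 14 probes of other glycogen genes, 0 were higher and 3 lower on creosote in Mojave, and none passed in Great Basin. Gaa, the lysosomal enzyme that digests glycogen, was lower on creosote by 0.70 ± 0.17 (limma, adjusted p = 0.0176). Pgm1, phosphoglucomutase, was lower on creosote by 0.93 ± 0.27 on A_42_P455982 (adjusted p = 0.0403). Its other probe, A_44_P356078, did not pass, with Mojave means of -0.18 on creosote and 0.08 on juniper. The Gaa call was lost without Mojave juniper animal 1 or 2 (adjusted p = 0.0634 and 0.071) and that of Pgm1 without any 1 of 10 animals (up to 0.183).

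Of the 38 probes of control genes, 5 were higher and 3 lower in Mojave, and 4 were higher in Great Basin. Klf15 is a transcription factor known in mice for the control of amino acid use and gluconeogenesis. It was higher on creosote by 0.84 ± 0.17 in Mojave (limma, adjusted p = 0.00563) and by 1.05 ± 0.16 in Great Basin (adjusted p = 0.00128). Crem is a transcription factor of the cyclic AMP response. On A_44_P149138 it was higher on creosote by 0.93 ± 0.18 in Mojave (adjusted p = 0.00394) and by 0.65 ± 0.16 in Great Basin (adjusted p = 0.0376). The other Crem probe, A_44_P372529, passed in neither population. Its means were 0.44 on creosote and 0.02 on juniper in Mojave, and 0.24 and -0.07 in Great Basin. Srebf1 is a regulator of lipid synthesis. On A_44_P178448 it was higher on creosote by 1.29 ± 0.21 in Mojave (adjusted p = 0.00129) and by 1.45 ± 0.19 in Great Basin (adjusted p = 0.000479). A_44_P501142, another Srebf1 probe, gave 1.12 ± 0.19 in Great Basin (adjusted p = 0.00311) and 0.58 ± 0.20 in Mojave, which did not pass (adjusted p = 0.095). The remaining Srebf1 probe, A_42_P667564, gave 0.11 ± 0.10 in Mojave and -0.01 ± 0.09 in Great Basin (adjusted p = 0.611 and 0.982).

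In Mojave animals the glucocorticoid receptor Nr3c1 was higher on creosote by 0.85 ± 0.14 on A_43_P15242 (limma, adjusted p = 0.00178) and by 0.49 ± 0.13 on A_44_P477376 (adjusted p = 0.0273). Akt1, a kinase of the insulin pathway, was lower on creosote by 0.80 ± 0.14 there (adjusted p = 0.0024). Crem in Great Basin lost its call without any 1 of 8 animals (adjusted p up to 0.112) and Nr3c1 A_44_P477376 without any 1 of 4 (up to 0.0998). With median centring the Mojave values of Klf15 (0.38), Crem (0.51) and both Nr3c1 probes (0.41 and 0.04) no longer passed. In male animals alone the calls of Sds and Ldha in Great Basin and that of Tat in both populations were lost, among others.

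**Figure D5:**
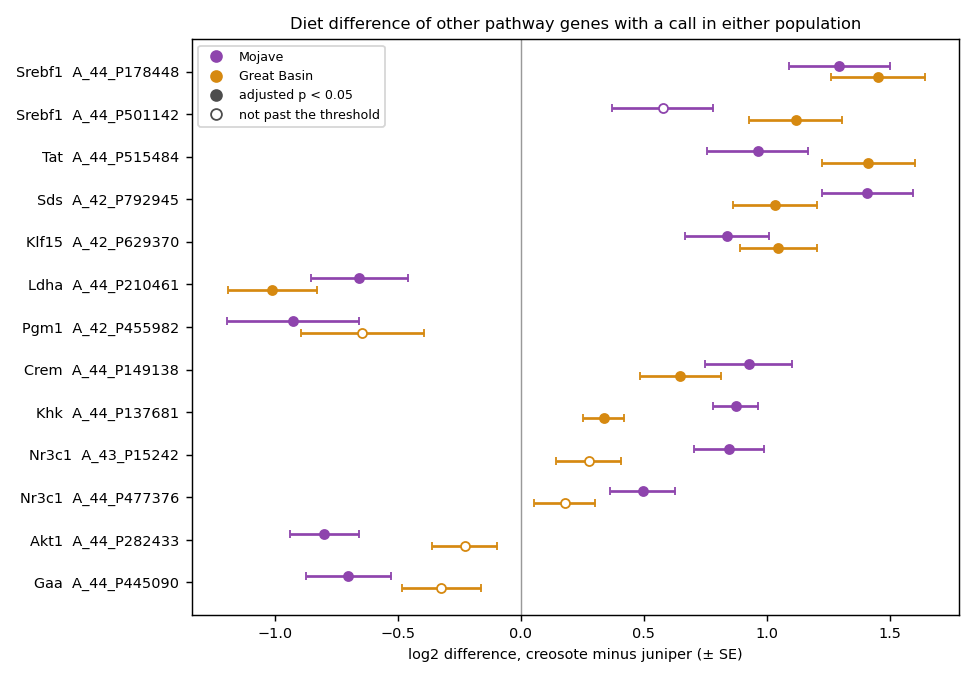
Log2 difference, creosote minus juniper, with its standard error (horizontal axis) for the called probes of 11 other genes of the pathway and its control (vertical axis) in Mojave and Great Basin animals; filled points passed at an adjusted p under 0.05. Sds, Tat, Klf15, Crem, Khk and Srebf1 lie to the right in both populations, and Ldha to the left.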

How the data were processed

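Liver RNA of 16 animals was hybridised to 16 two-colour Agilent rat arrays, animal in Cy5 and pool in Cy3, without dye exchange. Per the file headers and the submitters' processing notes, the deposited scanner files come from Agilent Feature Extraction 9.1.3.1 and give signals as a linear intensity. The deposited log10 ratio is red over green of the processed signals. The deposited series values are their log2 ratio with no further centring, equal to within 5e-10. The build and probe sequences were not used here.

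Mean and background signals were read in R 4.3.3 with limma 3.58.1: normexp with offset 50, loess within arrays with control and outlier spots at weight 0, and spots of a probe averaged. Of 45018 spots, 1639 were controls. Probes needed a red signal well above background on 4 or more of the 16 arrays. One limma fit held 4 group means and an additive sex term (11 residual and 4.05 prior degrees of freedom), with differences from the fit, not of plain means, and Benjamini-Hochberg adjustment over the 30154 to 30183 probes with a value in each comparison. The number of arrays limits precision, with a median standard error of 0.10 for the Mojave and 0.09 for the Great Basin diet effect. Probe pairs were compared by two-sided exact permutation of diets within populations. The fit was tested on simulated data.

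The pathway genes named are those past the threshold in a diet comparison, at most 12 by size; 1 of them is not reported here. The 9 genes and the lists were chosen with earlier results of these data known, and the name Pc was added from the annotation. Alternatives were the deposited ratios, offset 16, median centring, red alone, other filters, 1 probe per gene, no sex term, males only, slide and replicate blocks, no slide 1, and each animal left out.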

Additional observations from a re-analysis of the deposited data

Results flagged for a closer look

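In 6 of the 48 sets of 4 animals (12 probes in 4 groups), 1 animal lay so far from the other 3 that its gap exceeded Dixon's 95% critical value as a share of the set's range. Chance marks about 1 in 20 such sets, which is 2.4 of 48. G6pc A_44_P330342 was 1.12 in Great Basin creosote animal 1, against 0.08 to 0.23 in the other 3, and without that animal the Great Basin diet difference was 1.09. Ppp1r3c A_43_P21284 was 1.00 in Great Basin creosote animal 2, against 0.36 to 0.46 in the others. Gys2 A_43_P11706 was marked in 2 sets: Mojave creosote animal 3 at 0.0062, against -0.89 to -0.83 in the others, and Great Basin juniper animal 1 at -0.047, against 0.62 to 0.69. Pck1 A_44_P517258 was -0.45 in Mojave creosote animal 4, against 0.16 to 0.18 in the others. Ppp1r3b A_44_P250028 was -0.037 in Great Basin juniper animal 1, against -0.17 to -0.15. The calls of G6pc A_44_P330342, Gys2 A_43_P11706 and Ppp1r3c A_43_P21284 held in both populations without each of the 16 animals in turn.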

How the results depend on the processing

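No probe of the 7 genes changed the sign of a called difference under any alternative run. The number of probes of these genes called in Mojave was 4 to 6 over the alternatives, and 4 to 6 with 1 animal left out. The other filters and 1 probe per gene tested more or fewer than the 12 probes. In Great Basin it was 3 to 4 with 1 animal left out, and 1 in male animals only. Median centring called 1 probe between populations on creosote and 1 in the interaction. With 1 animal left out these counts, and that on juniper, were 0 to 0. Of the 5 probe pairs, 3 differed, 3 to 3 with 1 animal left out and 2 with the deposited ratios. Replicate numbers did not pair the samples: same-numbered animals correlated at -0.17 to 0.14, and 2 of 16 arrays were closest to their own number. With the replicate block the called probes numbered 6 in Mojave, 3 in Great Basin and 0 in the other comparisons.

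Over all probes, 3027 were called in Mojave, against 5632 with median centring, 1959 with deposited ratios, 1288 in red alone, 1275 in males, and 1989 and 1894 without Mojave juniper animals 1 and 2. In Great Basin 1180 were called, against 779 with deposited ratios, 174 in males, 434 without slide 1, and 733, 688 and 712 without creosote animal 1 and juniper animals 1 and 4. On creosote between populations 28 were called, against 3682 with median centring, 346 without a sex term, 11 in males, 4 with deposited ratios, 1 in red alone, 0 without slide 1, and 0 to 628 with 1 animal left out (82, 353 and 0 without Mojave creosote animals 4, 3 and 1, 628, 123 and 6 without Great Basin creosote animals 4, 2 and 1, and 18 without Mojave juniper animal 1). The interaction had 0, against 2974 with median centring, 215 without a sex term, 30 with a slide block, 3 with the replicate block and up to 500 with 1 animal left out (500 and 7 without Great Basin creosote animals 4 and 2, 62 and 32 without Mojave creosote animals 4 and 3, 8 without Mojave juniper animal 2, and 1 or 2 without 3 others). On juniper 0 to 3 were called, and 15, 6 and 2 without Mojave juniper animal 2, Mojave creosote animal 2 and Great Basin creosote animal 3. The share of calls higher on creosote was 37.9% in Mojave, 13.6% with median centring and 50.3% in red alone, and in Great Basin 51.7%, 63.8% and 40.7%. The causes were not tested. Pygl and the second Ppp1r3b probe gave no level at this signal over background.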

Other observations

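Among markers of other cells the liver samples could hold, a few probes passed the diet test. Of all probes, 3.80% passed higher and 6.23% lower in Mojave, and 2.02% higher and 1.89% lower in Great Basin. Of 12 Kupffer cell probes 0 passed in Mojave and 1, Cd14, was lower on creosote in Great Basin by -0.54 ± 0.10. Of 12 stellate and fibroblast probes 0 were higher in Mojave and 1 in Great Basin, the pericyte marker Rgs5 at 1.23 ± 0.20 (adjusted p = 0.00249). Of 9 endothelial probes 1 was higher in each, Xlkd1 at 0.56 in both, and of 6 cholangiocyte probes 1 in each, Sox9 A_44_P221245 at 0.22 in Mojave and 0.39 in Great Basin. The other Sox9 probes did not pass, at -0.22 and 0.20 in Mojave and -0.01 and 0.08 in Great Basin. Of 11 pancreas and intestine probes 2 were higher in Mojave, Amy2 A_44_P161473 and a probe of the elastase gene Ela1 at 0.59 ± 0.16. In Great Basin 1 was higher, the same Amy2 probe. None of 6 lymphocyte, 4 neutrophil, 2 erythroid and 5 muscle isoenzyme probes passed in either population by limma.

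Some regulators of glucose handling had differences of more than 0.40 on the log2 scale in both populations that did not pass the test. These genes were picked after their values were seen, and each has the same sign in both populations. Snf1lk, of the same list of control genes, did not pass either and had opposite signs. Its means were 0.22 on creosote and -0.56 on juniper in Mojave, and -2.04 and -1.52 in Great Basin. Gckr, the glucokinase regulatory protein, gave 0.71 ± 0.25 in Mojave and 0.47 ± 0.23 in Great Basin (limma, adjusted p = 0.0882 and 0.311). Insr, the insulin receptor, gave 0.43 ± 0.27 and 0.70 ± 0.25 (adjusted p = 0.395 and 0.155). Cebpb, a transcription factor of liver metabolism, gave -0.56 ± 0.33 and -0.61 ± 0.31 (adjusted p = 0.357 and 0.34).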
